A study of Mus musculus with 5 samples.

Results

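Complex I subunits were described as RNA in hepatocytes sorted from mouse liver. The members are the 38 gene symbols, of 13966 in the deposited table, that begin with Ndufa, Ndufb, Ndufc, Ndufs or Ndufv and a digit, together with Ndufab1; Ndufaf assembly factors and symbols ending in -ps were left out. ICR mice, an outbred stock, received a probe that fluoresces with fatty acid oxidation, and a sorter divided their hepatocytes by its signal into 5 libraries. The labels name a negative and a positive gate of control cells, and a negative, a positive and a high positive gate of cells with bezafibrate, which activates peroxisome proliferator-activated receptors. With 1 library in each group there is no replicate check, and the differences are between libraries and not shown to be between conditions. The sources used here do not give how many mice there were, whether they were pooled, their sex and age, or how, when and at what dose bezafibrate was applied, so animal and treatment cannot be told apart.

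Complex I (NADH:ubiquinone oxidoreductase) is the entry point of NADH into the mitochondrial respiratory chain. Its matrix arm takes electrons from NADH and passes them along a row of iron-sulfur clusters to ubiquinone, and its membrane arm pumps protons. Beta-oxidation of fatty acids yields NADH, which complex I oxidises, and FADH2-linked electrons, which reach ubiquinone without it. The catalytic core is shared with bacteria and is encoded partly in the nucleus and partly in mitochondrial DNA, and the accessory subunits surround it. Of the mitochondrially encoded core subunits 0 are in the table, so the values below concern nuclear genes alone. Ndufa4 is now placed with cytochrome c oxidase, and its paralogue Ndufa4l2 is likewise no structural part of complex I, so 36 of the 38 members are subunits. The symbol Ndufb1 is not in the table, so the 36 are not a full set of nuclear subunits.

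Promoters are shown because most members were higher with treatment in both gates. The set holds the 3 members with the largest difference of bezafibrate minus control in the negative gate (Ndufa4, Ndufb4 and Ndufa9) and the analysed member with the smallest (Ndufa13), on a log2 scale with a pseudocount; by plain ratio Ndufb4 came first and Ndufc1 just ahead of Ndufa9. Each is the 250 bases before the RefSeq transcript start, 5′ to 3′ on the gene's strand, on build GRCm38.p6, with capitals marking matches to the motifs spelled out below. All 4 lie on the minus strand, at chr6:11907451-11907700 for Ndufa4, chr16:37654369-37654618 for Ndufb4, chr6:126849145-126849394 for Ndufa9 and chr8:69902021-69902270 for Ndufa13. GENCODE, from which the gene spans below are taken, starts Ndufa4, Ndufb4 and Ndufa13 further upstream, so those stretches lie partly, and for Ndufa13 wholly, inside the GENCODE span.
Ndufa4: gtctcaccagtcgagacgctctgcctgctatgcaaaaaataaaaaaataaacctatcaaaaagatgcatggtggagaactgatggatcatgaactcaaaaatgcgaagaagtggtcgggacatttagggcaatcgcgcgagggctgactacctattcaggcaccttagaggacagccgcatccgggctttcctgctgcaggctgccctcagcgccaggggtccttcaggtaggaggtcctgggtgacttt
Ndufb4: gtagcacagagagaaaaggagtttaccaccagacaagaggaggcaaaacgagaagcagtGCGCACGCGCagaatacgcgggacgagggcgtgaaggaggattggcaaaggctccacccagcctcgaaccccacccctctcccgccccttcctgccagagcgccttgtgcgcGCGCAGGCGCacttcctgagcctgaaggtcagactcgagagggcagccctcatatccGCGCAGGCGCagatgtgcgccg
Ndufa9: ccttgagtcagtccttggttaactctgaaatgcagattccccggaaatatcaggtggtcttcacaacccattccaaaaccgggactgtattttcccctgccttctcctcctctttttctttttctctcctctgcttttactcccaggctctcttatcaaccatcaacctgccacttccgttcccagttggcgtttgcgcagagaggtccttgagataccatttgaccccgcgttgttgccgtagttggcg
Ndufa13: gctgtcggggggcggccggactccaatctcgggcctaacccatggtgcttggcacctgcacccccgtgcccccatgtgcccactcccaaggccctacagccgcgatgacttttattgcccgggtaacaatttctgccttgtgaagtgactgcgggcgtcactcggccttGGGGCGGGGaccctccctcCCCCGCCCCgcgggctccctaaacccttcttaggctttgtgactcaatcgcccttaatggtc

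A promoter window of 250 bases before to 50 after the start was found for 33 members, and 6 motifs were searched on both strands. The NRF1 motif (GCGCA and GCGC with any 1 base between), bound by a regulator of respiratory chain genes, was in the window of 7 members (21.2%), in 4.60% of all 32851 promoters and in 12.5% of the genes analysed. Ndufb4 held it at 3 places. AAGATGGCG, bound by YY1, was in 5 members (15.2%), with 1.40% of all promoters and 4.21% of the genes analysed. In Ndufa9 it lay 30 bases after the start, beyond the stretch shown. CCGGAAG, the core bound by ETS factors such as GABPA, was in 4 members (12.1%), with 8.86% of all promoters and 21.8% of the genes analysed. GGGGCGGGG, a GC box, was in 5 members (15.2%), with 11.4% and 25.4%. TCAAGGTCA, bound by ESRRA, and a site for PPAR with RXR (AGGTCA and AGGTCA with any 1 base between) were in 0 members, with 0.423% and 0.0396% of all promoters. The letters AGGTCA and AAGGTCA make these 2 motifs overlap in part. Ndufa4 held none of the 6 in its window, and Ndufa13 held 2 GC boxes.

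Recovered depth lay between 5056884 and 7146578 reads, and the members together had 2624 and 2749 reads in the control negative and positive gates and 9026, 6221 and 7432 in the negative, positive and high gates with bezafibrate. Hepatocyte markers (6 of 6 in the table, albumin among them) summed to normalised read counts of 39063 and 37703 in control and 91389, 65319 and 72338 with bezafibrate. The summed stellate cell list (5 of 6 in the table) went the other way, with 99.99 and 109.9 against 32.5, 30.4 and 37.8. The endothelial list (5 of 6) between 16.9 and 30.5, the cholangiocyte list (4 of 5) between 2.80 and 13.1 and the Kupffer cell list (3 of 7) between 2.67 and 6.90, while 0 of 5 lymphocyte markers are in the table. Rn45s, the ribosomal RNA precursor, held 36.3% and 34.8% of the deposited total in control negative and positive. Its share was 10.5%, 18.5% and 13.5% in bezafibrate negative, positive and high, an order in which the members' sum ran the other way. The part of hepatocyte and stellate RNA and of ribosomal RNA in the differences below was not tested.

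Bezafibrate libraries had more complex I RNA than control libraries in both gates. Summed over the 38 members, the normalised read count was 539 in control negative and 593 in control positive, against 1203, 981 and 990 in bezafibrate negative, positive and high. The sum was 2.23-fold higher between negative gates (95% counting interval 2.14 to 2.33) and 1.65-fold higher between positive gates (1.58 to 1.73). It takes in Ndufa4l2 and Ndufa4, which are no complex I subunits. Ndufa4 went from 11.7 and 9.92 in control to 75.6, 53.4 and 48.5 in bezafibrate and so raises both ratios. In 35 of 38 members all 3 bezafibrate libraries lay above both control libraries, where 35.7% of all 8973 genes analysed did, and in 0 all lay below, against 33.8%. The exceptions were Ndufa13, Ndufs5 and Ndufa4l2. Less RNA per cell and fewer cells of a kind cannot be told apart in such bulk samples.

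**Figure D1:**
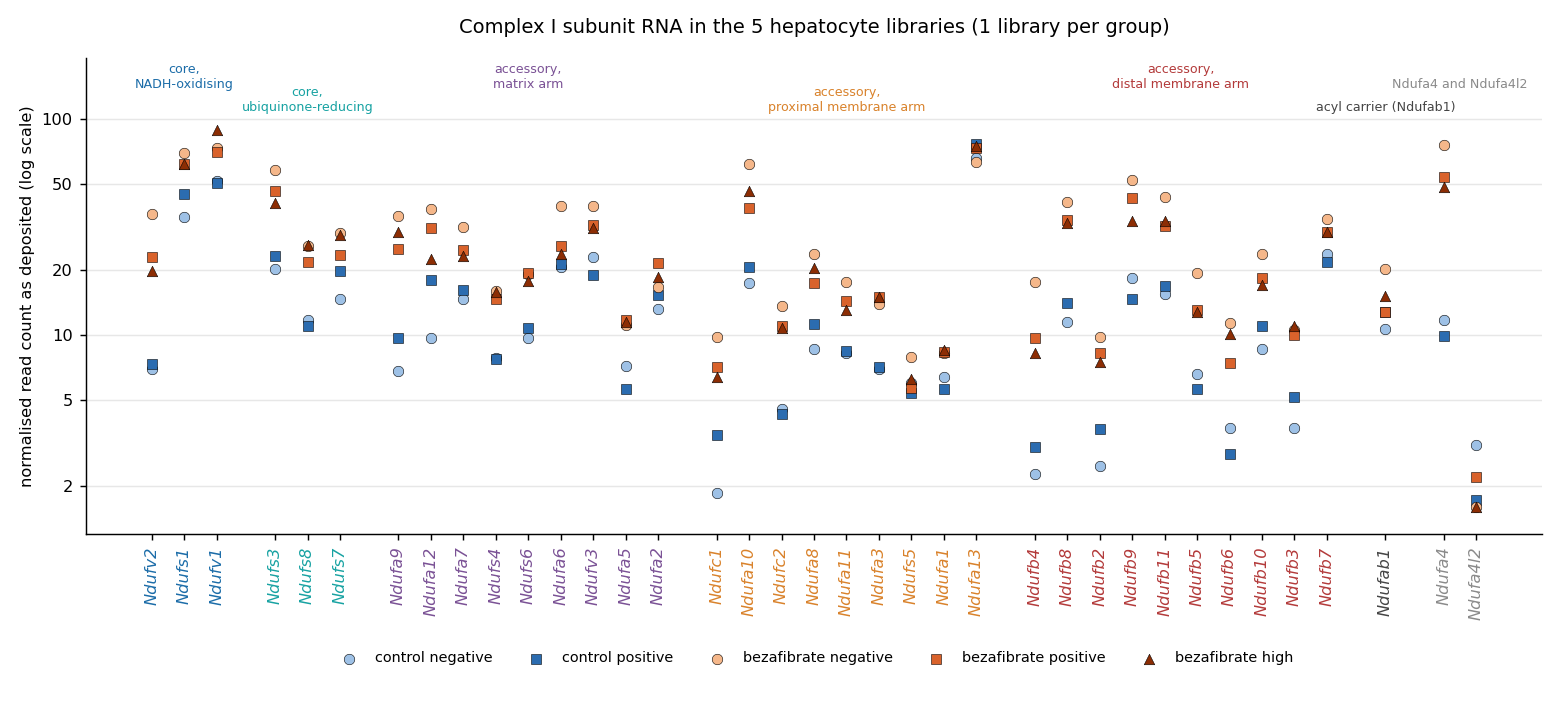
Normalised read count of 37 members in each library, on a log axis; each point is 1 library and members are grouped by their place in the complex. Blue control points lie below orange and brown bezafibrate points for the members shown other than Ndufa13, Ndufs5 and Ndufa4l2.

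Differences were taken between log2 values after adding 1.004 normalised read counts, the pseudocount. The median member was 1.09 higher in the negative gate and 0.81 in the positive gate, while the medians of all genes analysed were 0.02 and 0.00. Without Ndufa4 and Ndufa4l2 the members' medians were likewise 1.09 and 0.81. In the negative gate 36 members were above 0 and 22 were at least 2-fold higher, against 51.4% and 10.2% of all genes. In the positive gate 37 were above 0 and 9 were at least 2-fold higher, against 50.4% and 4.94%. At 1.5-fold or more, 30 and 25 members were higher, against 22.6% and 15.7% of all genes. Counting intervals lay above 1 for 33 and 31 members, against 32.3% and 25.9%, and below 1 for 0, against 29.0% and 24.4%. At 2-fold or more, 0 members were lower in either gate, against 5.86% and 2.91% of all genes. The count of 9 depends on the pseudocount, being 14 with a pseudocount 0.1 times as large and 5 with one 5 times as large, and it was 19 with scaling by column totals. That scaling moved the share of all genes at least 2-fold higher to 16.1% and 9.12%, and lower to 2.97% and 1.46%. Without Rn45s in the totals the balance in the negative and positive gates was instead 6.07% and 3.71% higher and 11.7% and 4.08% lower.

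Complex I transcripts are short, with a median of 772 bases against 3034 for all genes analysed, and treatment differences of all genes were larger in shorter transcripts. Among the 1730 genes with the shortest transcripts (238 to 1738 bases) the median of all genes was 0.39 in the negative gate and 0.26 in the positive gate. Of the 35 members among them, 31 were above that median in the negative gate and 31 in the positive gate, with members' medians of 1.09 and 0.82. In this shortest class 68.0% of genes were above 0 in the negative gate and 65.1% in the positive gate. At least 2-fold higher were 21.2% and 9.77% of its genes, larger shares than those over all genes given above. Among the 38 members themselves, difference and length had Spearman correlations of 0.06 and -0.04 in the negative and positive gates, given as a description over genes that share libraries. The part of transcript length in the members' differences was not tested.

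**Figure D2:**
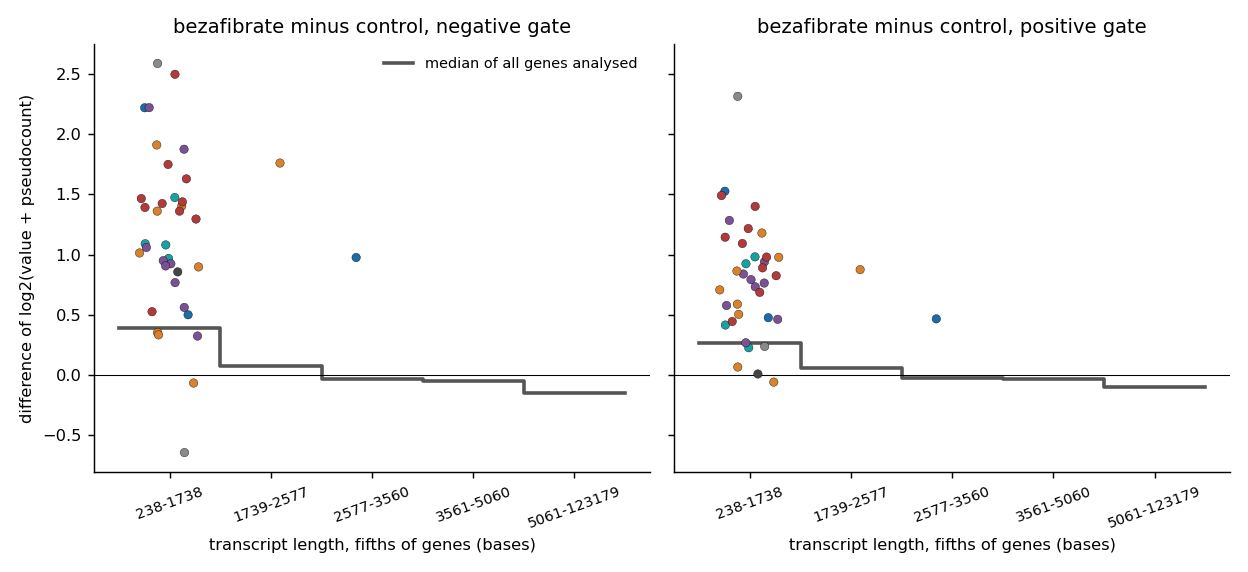
Treatment difference of each member (points, coloured by place in the complex) by transcript length, with the median of all genes analysed in each of 5 equal classes of length (grey steps), for the negative gate at left and the positive gate at right. Grey steps descend from 0.39 to -0.15 at left, and most members lie above the step of the shortest class.

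The 3 core subunits of the NADH-oxidising module differed widely in size of change. Ndufv2 (chromosome 17, 66078638 to 66101559), which carries an iron-sulfur cluster beside the NADH site, had 6.98 and 7.33 in control negative and positive and 36.3, 23.0 and 19.7 in bezafibrate negative, positive and high. Every bezafibrate library was thus well above both controls, with the negative gate highest. It was 5.19-fold higher between negative gates (3.63 to 7.65) and 3.14-fold between positive gates (2.15 to 4.7).

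Ndufv1 (chromosome 19, 4007384 to 4012806), which binds NADH and FMN, had 51.3 and 50.4 in the control and 72.9, 70.5 and 88.6 in the bezafibrate libraries, in the same order. The groups did not overlap, but the step was small, at 1.42-fold (1.22 to 1.66) and 1.40-fold (1.19 to 1.64), and the high gate was highest. Ndufs1, the largest subunit and a carrier of several clusters, had 34.9 and 44.6 against 69.6, 61.9 and 61.6, which gave 1.99-fold (1.67 to 2.38) and 1.39-fold (1.17 to 1.65). Members of 1 catalytic module thus differed from one another, with the counting intervals of Ndufv2 and Ndufv1 lying apart in both gates.

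The 4 core subunits of the ubiquinone-reducing module were closer together in the negative gate, between 0.97 and 1.48 on the log2 scale. Ndufs3, a scaffold of this module, had 20.1 and 23.1 in control against 57.7, 46.5 and 40.8 in bezafibrate, and was 2.87-fold and 2.02-fold higher. A processed pseudogene, Gm12251, matches 792 bases of Ndufs3 at 98.6% identity, so reads of this gene are uncertain.

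Ndufs7, which holds the last cluster before ubiquinone, had 14.6 and 19.8 in control against 29.5, 23.3 and 29.0 in bezafibrate. Its groups were apart, but in the positive gate the ratio was 1.18-fold with an interval of 0.901 to 1.54. Ndufs8, also a carrier of clusters, had 11.7 and 11.0 against 25.9, 21.8 and 26.1, with 2.21-fold (1.64 to 3.02) and 1.98-fold (1.43 to 2.78). Over the 7 nuclear core subunits the median was 1.08 in the negative gate and 0.47 in the positive gate.

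Among the 9 accessory subunits of the matrix arm, all were above 0 in both gates, against 51.4% and 50.4% of all genes. Medians of this arm's subunits were 0.92 and 0.76. Ndufa9 (chromosome 6, 126821721 to 126849136), which binds NADPH near the junction of the arms and whose promoter is printed above, had the largest difference. It had 6.78 and 9.70 in control against 35.3, 25.1 and 30 in bezafibrate, with all 3 above both controls. It was 5.21-fold higher between negative gates (3.62 to 7.73) and 2.58-fold between positive gates (1.85 to 3.68).

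Ndufa12, a paralogue of the assembly factor Ndufaf2, had 9.65 and 17.9 in the control gates and 38.1, 31.0 and 22.5 in the bezafibrate gates. It is one of the members whose control gates lie far apart, so it was 3.95-fold higher (2.89 to 5.5) between negative gates and 1.74-fold (1.34 to 2.27) in the positive gate. Ndufa2 had the smallest difference of this group in the negative gate, with 13.1 and 15.3 against 16.7, 21.4 and 18.5, or 1.27-fold (0.931 to 1.74). Ndufa6, an LYR-motif protein that holds an acyl carrier, had the smallest in the positive gate, with 20.5 and 21.3 against 39.3, 25.8 and 23.6. It was 1.92-fold higher between negative gates (1.52 to 2.43) and 1.21-fold between positive gates (0.938 to 1.57), so the bezafibrate gates differed from one another more than 2 of them did from control.

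Ndufv3, a small subunit on the NADH-oxidising end, had 22.8 and 19.0 against 39.5, 32.2 and 31.3. Ndufs4, whose loss in mice is used as a model of Leigh syndrome, had 7.80 and 7.76 against 16.0, 14.7 and 15.9, with 3 bezafibrate gates close together. Ndufs6, which binds zinc, was 1.99-fold and 1.80-fold higher. Its reads are uncertain, since Ndufs6b matches 348 bases at 96.6% identity. Ndufa5 had a larger difference in the positive gate (0.94) than in the negative (0.56), as did 7 of the 38 members.

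The 9 accessory subunits of the proximal membrane arm had medians of 1.01 and 0.71 and held the smallest differences among the 36 subunits. Ndufc1, a single-span subunit, had 1.85 and 3.45 in control against 9.73, 7.09 and 6.40 in bezafibrate, from 9 and 16 reads against 73, 45 and 48. All bezafibrate values were above both controls, and the ratio of 5.27-fold in the negative gate has a wide interval (2.63 to 12). Ndufa10, a subunit with a nucleoside-kinase fold and many more reads, had 17.5 and 20.7 against 61.6, 38.8 and 46.4, or 3.53-fold (2.79 to 4.50) and 1.87-fold (1.47 to 2.4). Ndufc2 had the largest difference of the group in the positive gate, at 2.56-fold (1.54 to 4.44), with 4.52 and 4.31 against 13.6, 11.0 and 10.8. Gm16053, a processed pseudogene on the same strand, overlaps Ndufc2 by 188 bases in the annotation. It is not in the table, so reads of Ndufc2 are uncertain.

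Ndufa13 (chromosome 8, 69894180 to 69902558), also known as GRIM-19, had 66.1 and 76.7 in control against 62.9, 73.4 and 74.7 in bezafibrate. The groups overlapped, and the ratios were 0.952-fold (0.824 to 1.10) and 0.957-fold (0.832 to 1.10). Its log2 differences of -0.07 and -0.06 became 0.16 and 0.14 when libraries were scaled by column totals. The annotated span of Yjefn3, on the same strand, covers the whole span of Ndufa13, and Yjefn3 is not in the table used here. Exons of the 2 were not compared, so reads of Ndufa13 are uncertain.

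Ndufs5, of the intermembrane-space side, had 5.95 and 5.39 against 7.86, 5.67 and 6.26, so bezafibrate positive lay between the 2 controls. Its counting intervals reached below 1 in both gates, at 0.833 to 2.14 and 0.615 to 1.83, and its positive-gate difference of 0.06 was -0.03 with scaling by totals without Rn45s. BC002163, a processed pseudogene in the table, matches 319 bases of Ndufs5 at 99.4% identity and had 3.49, 4.53, 5.60, 9.77 and 8.39 in library order, so the 2 are uncertain. Ndufa1, an X-linked subunit, was 1.30-fold and 1.49-fold higher with intervals that also reach below 1 (0.831 to 2.07 and 0.916 to 2.48).

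The 10 members that are accessory subunits of the distal membrane arm had the largest medians of the structural groups, at 1.43 in the negative and 1.04 in the positive gate. All 10 were above 0 in both gates, against 51.4% and 50.4% of all genes. At least 2-fold higher were 9 in the negative and 5 in the positive gate, against 10.2% and 4.94% of all genes. Summed, the 10 subunits were 2.74-fold higher (2.48 to 3.04) and 2.08-fold higher (1.87 to 2.32), against 1.74-fold (1.58 to 1.91) and 1.34-fold (1.21 to 1.47) for the proximal membrane arm. The second sums include Ndufa13, which alone holds 66.1 of 126 normalised read counts in control negative.

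Ndufb4 (chromosome 16, 37647170 to 37654453), with 3 NRF1 motifs in the promoter printed above, had 2.26 and 3.02 in control against 17.5, 9.61 and 8.26 in bezafibrate. All 3 were above both controls, from 11 and 14 reads against 131, 61 and 62. It was 7.73-fold higher between negative gates (4.18 to 15.9) and 3.19-fold between positive gates (1.76 to 6.17). Ndufb9, an LYR-motif protein that also holds an acyl carrier, had the largest log2 difference with the pseudocount in the positive gate of the arm (1.49, against 1.40 for Ndufb4), though not the largest ratio. It had 18.3 and 14.7 against 52.3, 43.0 and 33.6, with 2.86-fold (2.27 to 3.64) and 2.94-fold (2.24 to 3.89), and is thus among the members with much the same step in both gates.

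In the annotation, the spans of Ndufb2, Ndufb8 and Ndufb9 are each overlapped in part by a same-strand gene that is not in the table. These are Gm42420 (4022 bases), Gm20538 (4260 bases) and Gm49356 (3604 bases), so reads of the 3 subunits are uncertain. Ndufb8 was 3.57-fold and 2.42-fold higher, with 11.5 and 14 against 41.1, 33.9 and 33. Ndufb11, also X-linked, was 2.82-fold and 1.90-fold higher, though the pseudogene Gm6444 matches 456 of its bases at 96.9% identity. Ndufb7, on the intermembrane-space face, had the smallest differences of the arm, with 23.6 and 21.8 against 34.4, 29.9 and 29.8, or 1.46-fold (1.16 to 1.83) and 1.38-fold (1.07 to 1.77). It is also the member of this arm with the highest control values. Ndufb2, Ndufb4, Ndufb6, Ndufc1 and Ndufc2 stayed under the minimum mean of 5.02 in both controls and entered the genes analysed through the bezafibrate libraries; counts and medians here take in all 38 members whether or not they reached it.

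Ndufab1, the mitochondrial acyl carrier protein that sits in both arms and also serves mitochondrial fatty acid synthesis, had 10.7 and 12.7 in control against 20.1, 12.8 and 15.2 in bezafibrate. The negative gates differed 1.89-fold (1.37 to 2.64), while the positive gates were level at 1-fold (0.709 to 1.43), with a log2 difference of 0.00 that turned to -0.10 and -0.02 with scaling by totals without Rn45s and without the 100 highest genes. Ndufa4 (chromosome 6, 11900292 to 11907497), the cytochrome c oxidase subunit, had the largest log2 difference with the pseudocount of the 38 members in both gates (2.59 and 2.32), with 11.7 and 9.92 against 75.6, 53.4 and 48.5. As a ratio it was 6.46-fold (4.91 to 8.64) and 5.39-fold higher (3.95 to 7.50), in the negative gate below the 7.73-fold of Ndufb4, whose interval overlaps. Ndufa4l2, a paralogue known from hypoxia, stayed at 1.6 to 3.08 from 8 to 15 reads and had intervals of 0.222 to 1.19 and 0.501 to 3.52, so no difference was detectable at this depth.

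**Figure D3:**
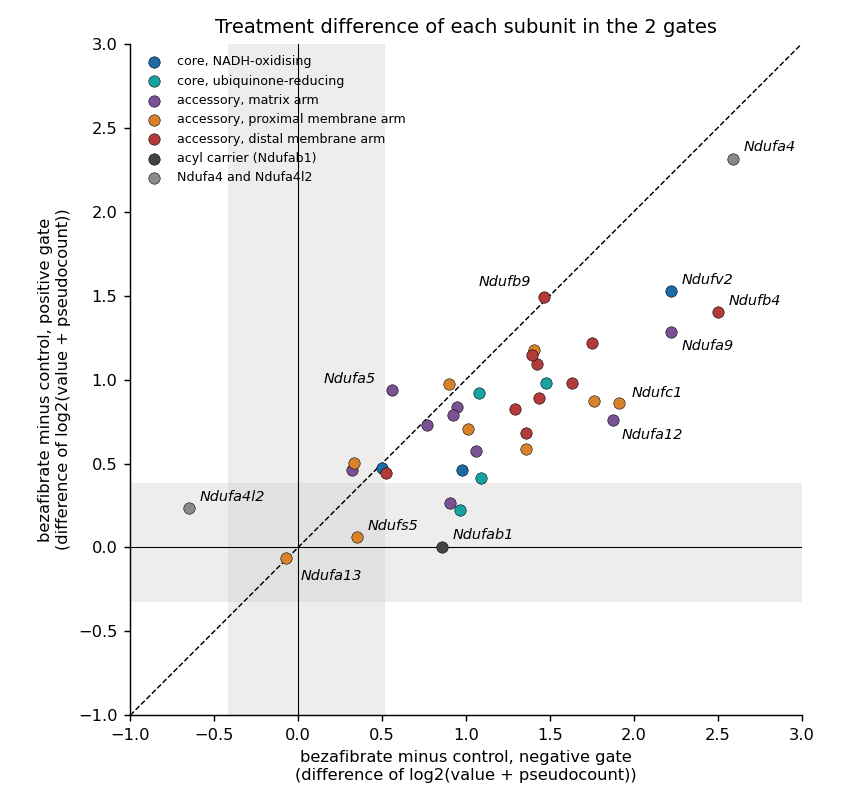
Difference of bezafibrate minus control in the negative gate (x axis) against the positive gate (y axis), log2(value + pseudocount), 1 point per member; grey bands hold the middle 50% of all genes analysed and the dashed line marks equal differences. Most points lie below the dashed line, and Ndufa13 and Ndufa4l2 are alone at or left of 0 on the x axis.

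The differences in the 2 gates came from separate libraries, but whether gates of 1 treatment share mice is not known. Across the 38 members they had a Pearson correlation of 0.78 and a Spearman correlation of 0.76, against 0.83 and 0.82 across all genes analysed, given as a description over genes. In 31 members the difference was larger in the negative gate. For all genes analysed that was so in 4766 of 8973.

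Levels can be compared between subunits only per length of transcript. Per kb, the median of the 36 subunits was 13.5 and 14 normalised read counts in control negative and positive and 29.8, 24.4 and 23.5 in bezafibrate negative, positive and high. Ndufa13 had the highest level in both control libraries, at 52.8 and 61.3, and Ndufb4 the lowest, at 2.33 and 3.11, a span of 22.7-fold and 19.7-fold. In bezafibrate negative the highest was Ndufb9 at 74.2 and the lowest Ndufs4 at 9.42, and the span was 7.88-fold. Bezafibrate positive had the same pair, at 61.1 and 8.63, with a span of 7.08-fold. In bezafibrate high the pair was that of the controls, Ndufa13 at 59.7 and Ndufb4 at 8.51, with a span of 7.02-fold.

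Subunit levels per kb were therefore closer together in the bezafibrate libraries. The SD of log2 level per kb over the 36 subunits was 1.05 and 1.02 in the control gates and 0.75, 0.81 and 0.78 in the bezafibrate negative, positive and high gates. Low members carry more counting error in the control libraries, where Ndufb4 rests on 11 and 14 reads, and its part in the wider spread was not tested. Ndufb8 went from rank 13 and 11 of 36 in the controls to rank 3 in each bezafibrate library. Ndufv2 went from rank 35 and 34 to ranks 26, 28 and 33, and Ndufs5 from 21 and 24 to 32, 33 and 31.

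**Figure D4:**
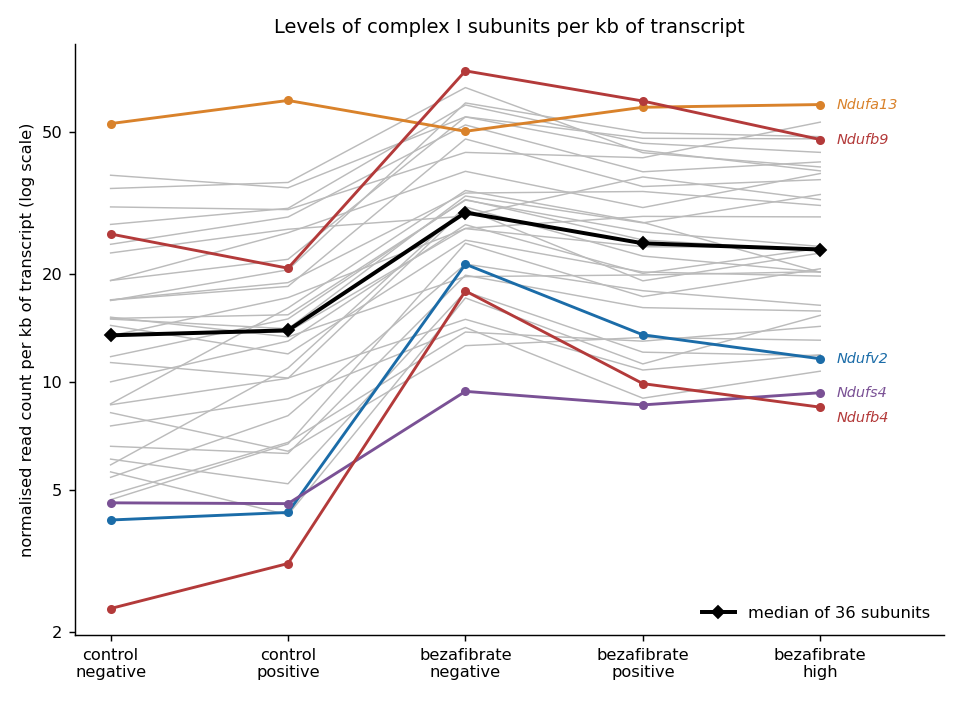
Normalised read count per kb of transcript for 36 subunits in each library, on a log axis; each line is 1 subunit, 5 are coloured and named, and the black line is the median. The median goes from 13.5 and 14 in control to between 23.5 and 29.8 in bezafibrate, while Ndufa13 stays between 50.3 and 61.3.

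Among cells with bezafibrate, the positive gate had less complex I RNA than the negative gate. The summed value was 0.815-fold (0.789 to 0.842), the median member differed by -0.29, and 31 of 38 members were below 0, where all genes had a median of -0.01 and 48.4% of them were above 0. Rn45s took 18.5% of the positive library and 10.5% of the negative, and without it in the scaling the members' median was -0.14 while that of all genes was 0.13. Among the 1730 genes with the shortest transcripts, 35 members included, the median difference was -0.12 and 37.4% were above 0. Of these 35 members, 9 were above that median. The part of transcript length was not tested. At 1.5-fold or more, 5 members were lower, against 2.64% of all genes. Counting intervals lay below 1 for 20 members, against 18.6% of all genes, and above 1 for 2, against 13.7%.

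Below 0 were all 7 core subunits, all 10 distal subunits, 6 of 9 accessory subunits of the matrix arm and 6 of 9 of the proximal membrane arm, with the largest differences in Ndufb4 (0.551-fold, 0.399 to 0.752), Ndufa10 (0.630-fold, 0.537 to 0.737) and Ndufv2 (0.635-fold, 0.515 to 0.779). Ndufab1 was 0.634-fold (0.478 to 0.836) and Ndufa6 0.657-fold (0.540 to 0.798). Going the other way, Ndufa2 was 1.29-fold and Ndufa13 1.17-fold (1.02 to 1.33).

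The high gate was much like the positive gate in complex I RNA. The summed ratio of high to positive was 1.01-fold (0.976 to 1.04), the median member differed by -0.03, and 23 members were below and 15 above 0, where 49.9% of all genes were above. With scaling by column totals the median was 0.02. Ndufv1 was 1.26-fold higher in the high gate (1.11 to 1.42), Ndufs7 1.25-fold (1.01 to 1.54) and Ndufa10 1.2-fold (1.01 to 1.41). Ndufa12 was 0.725-fold (0.587 to 0.895) and Ndufb9 0.780-fold (0.655 to 0.929). Intervals thus lay above 1 for 3 members and below 1 for 2, against 8.21% and 7.75% of all genes.

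Against the negative gate, the high gate was lower by a median of 0.31, or 0.823-fold in the sum (0.798 to 0.849), with 30 of 38 members below 0. At 1.5-fold or more 6 members were lower, against 2.28% of all genes, and counting intervals lay below 1 for 18 and above 1 for 2, against 16.9% and 12.2%. Of all genes, 47.0% were above 0. Of the 1730 genes with the shortest transcripts, 36.9% were above 0 and the median was -0.11. Among the 35 members in that class, 10 were above its median. Ndufb4 was 0.473-fold (0.344 to 0.645), Ndufv2 0.544-fold (0.442 to 0.667) and Ndufa12 0.591-fold (0.485 to 0.717), while Ndufv1 was 1.22-fold (1.08 to 1.36) and Ndufa13 1.19-fold (1.05 to 1.35). The 3 gates thus did not follow the order of probe signal for the members as a whole: complex I RNA was highest in the negative gate.

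Between the control gates the direction was the opposite, and small. The sum in the positive gate was 1.10-fold that of the negative gate (1.04 to 1.16), and the median member was 0.13 higher, with 24 above and 14 below 0, where 52.1% of all genes were above. Counting intervals lay below 1 for 0 members, against 4.41% of all genes, and above 1 for 2, against 4.93%: Ndufa12 at 1.85-fold (1.28 to 2.71) and Ndufs1 at 1.28-fold (1.04 to 1.58). At 1.5-fold or more, Ndufa12 and Ndufc1 were higher, against 1.77% of all genes.

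**Figure D5:**
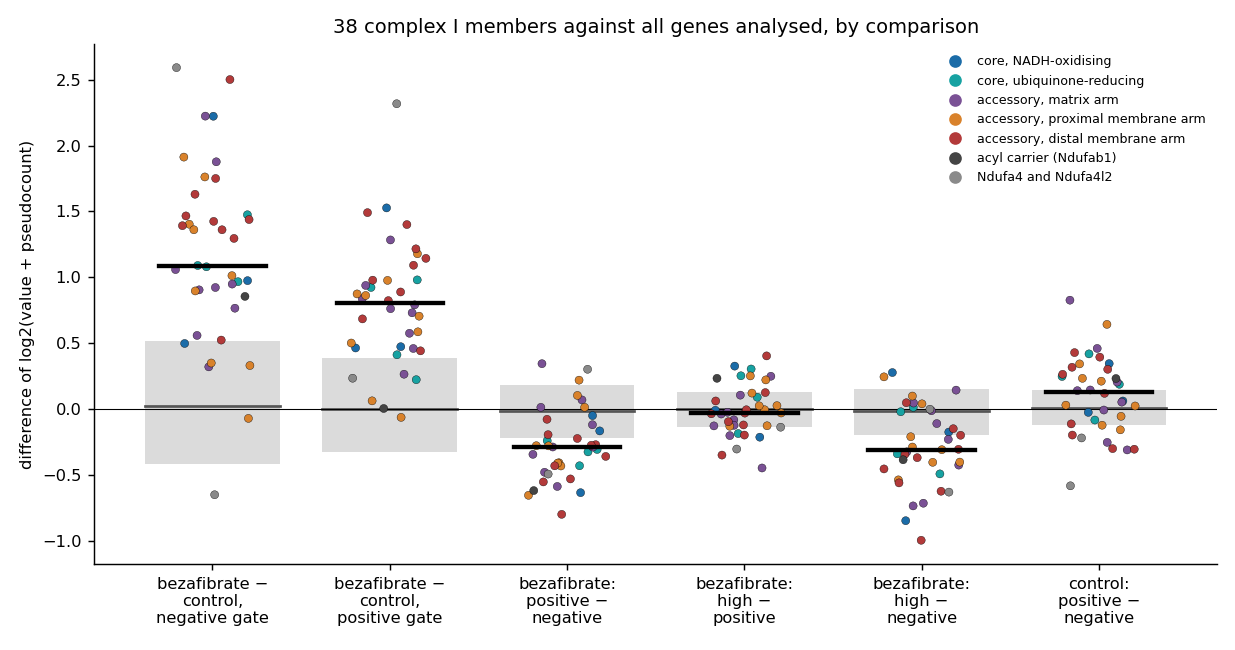
Differences of log2(value + pseudocount) for the 38 members in 6 comparisons; points are members, black bars their medians, grey boxes and lines the middle 50% and median of all genes analysed. The members' medians are 1.09 and 0.81 for treatment and between -0.31 and 0.13 for the comparisons of gates.

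Assembly factors, which build complex I without staying in it, lay on both sides of 0. Of 16 in the table, 9 were above 0 in the negative gate and 10 in the positive gate, with medians of 0.42 and 0.14, and 2 and 1 were at least 2-fold higher; of all genes 51.4% and 50.4% were above 0 and 10.2% and 4.94% at least 2-fold higher. Only 9 of the 16 reached the minimum mean of the genes analysed, and Ndufaf6 and Tmem126b were among those under it. Ndufaf1 had 5.13 and 6.68 in control against 11.3, 9.46 and 10.5 in bezafibrate, and Ndufaf4 had 4.72 and 5.60 against 10.5, 9.46 and 10.1. Acad9, an acyl-CoA dehydrogenase relative with a role in assembly and the most abundant of the list, had 112 and 108 against 88.2, 101 and 86.9. Ndufaf6 had 6.57 and 2.59 against 2.8, 3.47 and 3.73, and Tmem126b, with 2 to 19 reads, had 1.23 and 0.431 against 2.53, 2.36 and 1.6. Foxred1 had 19.7 and 15.3 against 12.3, 14.5 and 14.7, and Tmem186 had 17.9 and 16.0 against 12, 10.7 and 11.3.

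Other respiratory complexes also had medians above 0, each somewhat higher than that of complex I in both gates, and no difference between complexes was tested. Complex II had medians of 1.49 and 1.03 over 4 genes, complex III 1.12 and 0.91 over 9, complex IV 1.30 and 0.84 over 11 and ATP synthase 1.30 and 0.92 over 15. Complex I lay at 1.09 and 0.81. Uqcrb of complex III had 2.67 and 3.88 against 28.7, 20.2 and 12.9, and Atp5f1 of ATP synthase had 21.8 and 22.6 against 108, 76 and 78.2. Cox7a2l, which joins complexes III and IV, had 18.7 and 12.7 against 17.7, 15.4 and 21.3, with no step between the groups. Among other enzymes that deliver electrons to ubiquinone, Etfdh, which takes electrons from acyl-CoA dehydrogenases, had 46.8 and 50.7 against 122, 83.2 and 96.1, and the sulfide oxidoreductase Sqrdl had 37.4 and 36.6 against 128, 80.5 and 102. Gpd2, of the glycerol phosphate shuttle, went the other way, with 54.2 and 57.8 against 38, 32.8 and 33.7.

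Regulators of mitochondrial gene expression lay on both sides of 0, as all genes did. Of 12, 5 were above 0 in the negative gate and 6 in the positive gate, near the 51.4% and 50.4% of all genes. The coactivator Ppargc1a had 58.5 and 57.6 in control against 32.9, 33.6 and 27.7 in bezafibrate, and its relative Pprc1 had 77.6 and 76.5 against 26.5, 27.6 and 26.4. Ppargc1b had 29.4 and 20.3 against 46.7, 54.4 and 56. Nrf1, whose motif is counted above, had 17.5 and 15.1 against 9.86, 9.61 and 13.7, and Esrra had 28.1 and 21.3 against 14.3, 17.2 and 21.9. Both were thus lower in every bezafibrate library but for Esrra in the high gate, which lay between the 2 controls. Gabpa, an ETS factor whose motif was also counted, went the other way, with 24.8 and 23.5 against 37.9, 29.6 and 30.9. Yy1 had 32.6 and 26.9 against 32.3, 30.4 and 28.4, so its groups overlapped. Of the matrix proteases, Clpp had 11.7 and 11.6 against 22, 16.2 and 18.0, while Lonp1 had 104 and 109 against 97.6, 104 and 111.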

How the data were processed

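Strand-specific, ribosomal RNA-depleted libraries were sequenced as read pairs, per the labels' protocols, from RNA purified with an FFPE kit. The deposited file is 1 gene table of normalised signal, a column for each of 5 libraries. Trimmomatic 0.36, Bowtie2, RSEM and edgeR are named with build mm10, per the submitters' processing notes, without roles; the sources used here do not give the annotation or strand setting. Taking the smallest positive value of a column as 1 read turned 100% of values into whole reads (tolerance 0.001 reads).

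Members and lists were chosen with earlier results of these data known. The pseudocount, 1.004, equals 1 CPM at the mean column total, and genes analysed had a mean of at least 5 times that. Ratios carry exact Clopper-Pearson 95% intervals from recovered reads, which cover counting error only. With 1 library per group no p-value is given.

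Gate and treatment were fitted as additive terms to 4 libraries (limma 3.58.1, R 4.3.3, adjusted p below 0.05), which leaves 1 residual degree of freedom and is no test between replicates. It called 32 of 37 members higher, against 24.5% of all genes; 5 of the 32 reached the filter through the bezafibrate libraries alone, so this count supports nothing. The balance of calls depends on scaling (closing section). edgeR 4.0.16 on the recovered reads called 32 members, and 2162 genes higher and 1944 lower, 24.1% of all genes being higher. Steps were tested on simulated data. Coordinates and lengths (the shortest APPRIS principal transcript, else the longest coding one) came from GENCODE M21 for GRCm38, which matched 95.8% of symbols. Copies were transcripts of other genes aligning at 95% identity or more over at least 50% of a member's transcript (blastn). Overlaps were taken from gene spans, and exons were not compared. Some members also overlap a gene of the table on the opposite strand, such as Ndufs1 with Ino80dos (14695 bases) and Ndufb5 with Mrpl47 (616 bases). Scripts ran on scipy 1.17.1, pandas 2.3.3 and numpy 2.4.6 in Python 3.11.15. Named with full values were the core subunits but for 1 that is counted in the totals and not reported here, Ndufab1, Ndufa4, Ndufa4l2, the most abundant and most extreme members of each structural group, and of the other lists; further names were chosen after their values were seen.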

Additional observations from a re-analysis of the deposited data

Results flagged for a closer look

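The gate difference of complex I members had opposite signs in the 2 treatments. The median of positive minus negative was -0.29 under bezafibrate and 0.13 in control on the log2 scale, with 20 of 38 members below 0 under bezafibrate and above 0 in control and 3 the other way round; of all 8973 genes analysed, 2504 and 2168 did so. Medians of the other respiratory complexes had the same signs, so the pattern was not particular to complex I. Under bezafibrate and in control they were -0.44 and 0.06 for complex II and -0.29 and 0.06 for complex III. For complex IV they were -0.42 and 0.09, and for ATP synthase -0.36 and 0.04. Each treatment has 1 library per gate, so the difference between treatments was not tested. For the 31 members whose treatment difference was larger in the negative gate, this is the same contrast of the same libraries and not a separate result. Ndufa12 was the 1 member whose counting intervals excluded 1 in opposite directions, with a gate difference of -0.29 under bezafibrate and 0.83 in control.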

How the results depend on the processing

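The members' median difference kept its sign in 5 of the 6 comparisons under every alternative run; the exception was high minus positive under bezafibrate, which turned from -0.026 to 0.023 with scaling by column totals, with 15 members below 0. Scaling moved the median of all genes by 0.22 in the negative gate and 0.20 in the positive gate with column totals, and by -0.24 and -0.11 without Rn45s. Relative to the median of all genes, the members' treatment difference was 1.06 in the negative gate with each of the 4 scalings and 0.79 to 0.81 in the positive gate. As such, the members' median was 0.84 (negative gate) and, between bezafibrate positive and negative gates, -0.14 without Rn45s, and 0.99 (positive gate) with column totals. A pseudocount 5 times as large gave 0.90 in the negative gate and 5 members at least 2-fold higher in the positive gate, a pseudocount 0.1 times as large gave 14 there and column totals gave 19. A filter at 20 times the pseudocount left 17 members, so counts fell by construction: 10 and 4 at least 2-fold higher in the negative and positive gates, 16, 10 and 15 below 0 for positive minus negative, high minus positive and high minus negative under bezafibrate, 5 below 0 in control, and 16 called higher by limma. Single members that changed sign with column totals were Ndufa13 (0.16 and 0.14 in the negative and positive gates), without Rn45s Ndufab1 (-0.10) and Ndufs5 (-0.034) in the positive gate, and without the 100 highest genes Ndufab1 (-0.016). With few reads, ratios of Ndufc1, Ndufb4, Ndufb2 and Ndufb6 are imprecise. No paired analysis was possible because each group has 1 library and the labels carry no replicate numbers; gate is a term of the additive fit. That fit called 3223 genes higher and 1038 lower with column totals (35 members higher) and 1482 higher and 2717 lower without Rn45s (28 members).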
